A study of Mus musculus with 3 samples.

Results

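The ON bipolar glutamate signalling cascade was followed through 10 genes in whole mouse retina: Grm6, Trpm1, Nyx, Gpr179, Lrit3, Rgs11, Rgs7, Gnao1, Gng13 and Pcp2. The genes were chosen by their known role in the cascade, with earlier results of these data known. Their probes were found through the RefSeq accession that the scanner files give for each probe, and the 10 genes are 10 of the 21366 named genes on the arrays. Each gene had at least 1 probe, 13 probes in all, and all 13 were well above background on all 3 arrays. The retinas came from mice at postnatal day 12 and carried the genotypes Otx2 KI, Crx KO and WT (wild-type), with 1 Agilent 1-colour array for each. KI and KO are the usual short forms of knock-in and knockout. The labels name no changed exon, no locus for the Otx2 KI, no strain and no number of pooled animals.

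ON bipolar cells are the retinal interneurons that respond to light increments, and rod bipolar cells belong to them. In darkness, photoreceptors release glutamate onto the receptor mGluR6, which through the G protein Go keeps the cation channel TRPM1 closed. When light stops the release, RGS proteins speed the return of Go to its resting state and TRPM1 opens. Nyctalopin and LRIT3, leucine-rich repeat proteins, help to hold TRPM1 at the dendritic tip. Loss of the receptor, the channel, GPR179 or either of these leucine-rich proteins causes congenital stationary night blindness in people. In mouse, LRIT3 made by photoreceptors is also known to organise the complex from across the synapse. CRX and OTX2 are homeodomain proteins of the same family, and many rod and cone genes depend on CRX.

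Signals are Cy3 intensities after the scanner software's background subtraction, scaled by each array's 75th percentile and given on the scale of the WT array, called scaled signal here. Log2 differences are Otx2 KI minus WT, Crx KO minus WT and Otx2 KI minus Crx KO. A gene was taken as measured where both arrays of a comparison had its probe well above background, as 63.5% to 67.1% of spots per array were. With 1 array for each genotype differences have no replicate check, so they are described without a test or a p-value. Calls rest on size alone and need 2-fold, or 1 on the log2 scale. From the error model of the scanner software, the error for a log2 difference was 0.20 for the median gene, and it does not cover the spread between mice. For bright probes that error is nearly a fixed share of the signal, 1568 of 15679 for Grm6 in Otx2 KI. It is thus almost the same for all cascade genes but Lrit3. Lying within or beyond it describes the size of a difference and is not a test. In bulk retina, fewer cells of a type and less RNA per cell cannot be told apart. Crx had scaled signals of 1062 in Otx2 KI, 7177 in Crx KO and 9790 in WT, and Otx2 had 63860, 62981 and 40887 in the same order. Where these probes lie relative to the changed alleles is not in the labels, so the signals do not check the genotypes. All 12 rod and ON bipolar cell markers examined were well above background on all 3 arrays, as were all 8 rod markers.

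CRX and OTX2 are known to bind DNA with a TAATC core, most often as TAATCC or TAATCT. The promoters of Lrit3, the gene with the largest difference here, and of the receptor and channel genes Grm6 and Trpm1 are shown as examples of windows that hold this core. RefSeq (GRCm38.p6) gives the 250 bases before a start site for 9 of the 10 genes, in 14 windows. Each is written along its gene's strand, with TAATC, or GATTA where the match lies on the opposite strand, in capitals.
Lrit3, chr3:129804137-129804386, minus strand: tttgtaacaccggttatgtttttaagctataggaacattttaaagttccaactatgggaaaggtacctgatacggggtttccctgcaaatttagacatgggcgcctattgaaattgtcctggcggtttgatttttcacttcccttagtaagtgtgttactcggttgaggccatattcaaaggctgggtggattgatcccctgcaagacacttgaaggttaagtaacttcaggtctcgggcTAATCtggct
Grm6, chr11:50850435-50850684, plus strand: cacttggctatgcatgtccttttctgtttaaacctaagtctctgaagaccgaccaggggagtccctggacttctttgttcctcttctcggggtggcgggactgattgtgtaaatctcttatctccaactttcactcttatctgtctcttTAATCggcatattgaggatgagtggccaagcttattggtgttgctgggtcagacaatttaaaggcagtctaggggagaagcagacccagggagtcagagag
Trpm1, upstream start, chr7:64153585-64153834, plus strand: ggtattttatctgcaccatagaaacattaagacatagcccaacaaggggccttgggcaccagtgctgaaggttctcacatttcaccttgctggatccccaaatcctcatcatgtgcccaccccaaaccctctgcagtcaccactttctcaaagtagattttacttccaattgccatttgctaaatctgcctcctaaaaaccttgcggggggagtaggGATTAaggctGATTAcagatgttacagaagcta
Trpm1, downstream start, chr7:64185209-64185458, plus strand: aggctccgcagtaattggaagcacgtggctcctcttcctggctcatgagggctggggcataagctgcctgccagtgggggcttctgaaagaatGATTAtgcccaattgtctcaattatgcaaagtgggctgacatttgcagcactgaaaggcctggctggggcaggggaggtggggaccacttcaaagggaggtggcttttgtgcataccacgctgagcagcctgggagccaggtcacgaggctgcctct
The Lrit3 window holds TAATCT 10 bases before the start. In Grm6 the match is TAATCG at 101 bases before the start. The upstream Trpm1 window holds TAATCC at 33 bases and TAATCA at 23 bases on the opposite strand, and the downstream window holds TAATCA at 157 bases. Pcp2 has TAATCT on the opposite strand in 1 of its 4 overlapping windows. Of the 14 windows 5 (35.7%) held TAATC on either strand, in 4 of 9 genes, against 6519 of 32851 RefSeq windows of the same length (19.8%). TAATCC or TAATCT stood in 3 of the 14 windows and in 12.8% of all windows. The windows of Nyx, Gpr179, Rgs7, Gnao1 and Gng13 held no TAATC, which says only that these letters are absent from these windows.

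Signals of 9 of the 10 cascade genes lay close together in the 3 genotypes, and Lrit3 was the exception, lower in Otx2 KI. On their brightest probes the 9 genes spanned 1.10-fold to 1.29-fold across the arrays, and Lrit3 spanned 2.53-fold. Further probes of Trpm1 and Gnao1, described below, differed by 1.57-fold and 1.62-fold in Crx KO against WT. In Otx2 KI against WT, 1 cascade gene was 2-fold or more lower and 0 were higher, where 2.53% of all 15809 measured genes were lower and 1.35% were higher. In Crx KO against WT, 0 cascade genes passed 2-fold in either direction, where 3.43% of 16048 genes were lower and 1.95% were higher. Directly between the mutants, 1 cascade gene was lower in Otx2 KI and 0 were higher, where 0.645% of 15805 genes were lower and 0.677% were higher. With limma's normexp background correction the single lower gene of both comparisons was within 2-fold, as the values of Lrit3 below show.

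**Figure D1:**
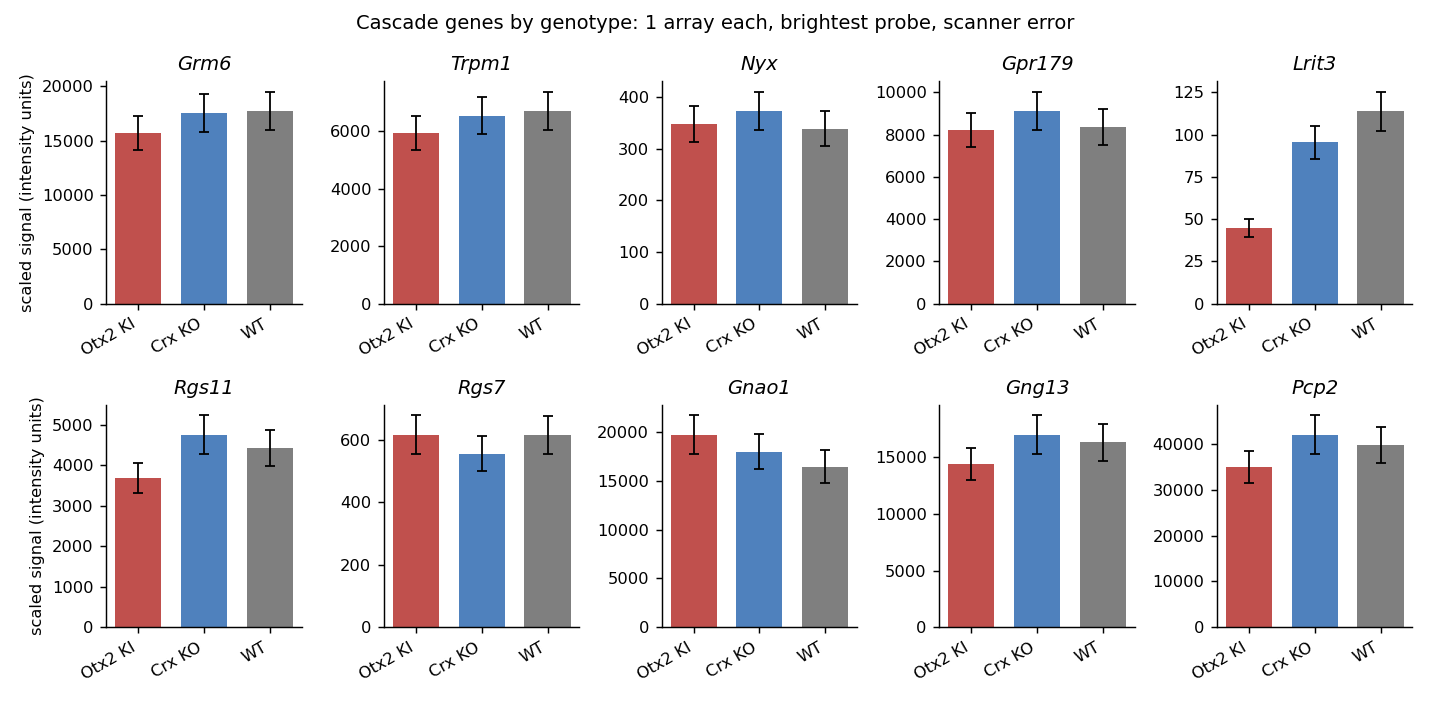
Scaled signal (intensity units, linear axis from 0) of each cascade gene on its brightest probe in Otx2 KI, Crx KO and WT, 1 array each. Error bars are the scanner software's error for that probe, not a spread between mice. Only Lrit3 has a bar well below the others, at 44.9 in Otx2 KI beside 95.4 in Crx KO and 114 in WT.

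Grm6, which encodes the receptor mGluR6, had a scaled signal of 15679 in Otx2 KI, 17552 in Crx KO and 17735 in WT on its only probe (A_55_P1990623). Its log2 differences were -0.18 for Otx2 KI against WT, -0.01 for Crx KO against WT and -0.16 between the mutants. All 3 lie within the scanner error of 0.20, so the genotypes have no resolved order. Trpm1, the channel that mGluR6 signalling closes, read 5932 in Otx2 KI, 6536 in Crx KO and 6701 in WT on its brightest probe (A_55_P2037997). The log2 differences of Trpm1 were -0.18, -0.04 and -0.14 in the same order of comparisons, again within the error. The change of Grm6 minus that of Trpm1 was -0.00 in Otx2 KI and 0.02 in Crx KO, with an error of 0.29 for such a pair. On these probes the changes of receptor and channel could not be told apart at that error. Another Trpm1 probe, described below, had a log2 difference of -0.65 in Crx KO against WT.

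Gnao1 encodes the alpha subunit of Go, the G protein that mGluR6 activates, and is also widely made by other neurons. On its brightest probe (A_55_P2096144) it read 19705 in Otx2 KI, 17960 in Crx KO and 16440 in WT. It was the cascade gene with the highest difference in Otx2 KI against WT, 0.26 on the log2 scale and slightly beyond the error of 0.20. In Crx KO against WT its difference was 0.13, within the error. Gng13, a G protein gamma subunit of ON bipolar cells that pairs with Gnb3, read 14402 in Otx2 KI, 16984 in Crx KO and 16320.0 in WT (probe A_51_P149422). Its log2 differences were -0.18 and 0.06 against WT and -0.24 between the mutants, the last slightly beyond the error. In Otx2 KI against WT Gnao1 was above 0 and Gng13 below 0, but the -0.18 of Gng13 was within the error. When centred on rod and ON bipolar markers, Gng13 was at 0.00. The change of Gnao1 minus that of Gng13 was 0.44 in Otx2 KI against WT, with an error of 0.29, and 0.07 in Crx KO against WT.

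Rgs7 and Rgs11 encode the RGS proteins that speed the switching off of Go in ON bipolar cells, and Gpr179 encodes the orphan receptor that anchors them. Rgs11 read 3687 in Otx2 KI, 4754 in Crx KO and 4430 in WT (probe A_55_P2000354). Its signal was lowest in Otx2 KI, with log2 differences of -0.26 against WT and -0.37 against Crx KO, both beyond the error of 0.20. When centred on rod and ON bipolar markers, its difference from WT in Otx2 KI was -0.08, within the error. In Crx KO against WT it differed by 0.10, within the error. Rgs7 read 616 in Otx2 KI, 556 in Crx KO and 615 in WT (probe A_55_P2089198), with log2 differences of 0.00 in Otx2 KI and -0.15 in Crx KO against WT. Between the mutants, the difference of Rgs11 minus that of Rgs7 was -0.52, with an error of 0.29. Against WT the same contrast was -0.27 in Otx2 KI and 0.25 in Crx KO, each within its error. Gpr179 read 8219 in Otx2 KI, 9128 in Crx KO and 8371 in WT (probe A_55_P1962851). All log2 differences of the anchor were within the error, at -0.03 and 0.12 against WT and -0.15 between the mutants.

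Nyx, which encodes nyctalopin, had a scaled signal of 348 in Otx2 KI, 373 in Crx KO and 339 in WT (probe A_51_P449867). Its log2 differences of 0.04, 0.14 and -0.10 were within the error. Lrit3 read 44.9 in Otx2 KI, 95.4 in Crx KO and 114 in WT (probe A_55_P1979290). It was lowest in Otx2 KI, and Crx KO lay below WT. In Otx2 KI, the Lrit3 signal was below WT by 2.53-fold (log2 -1.34, error 0.23) and below Crx KO by 2.13-fold (-1.09, error 0.23). In Crx KO against WT it was 1.19-fold lower (-0.25, error 0.21), slightly beyond the error, and at -0.00 when centred on rod and ON bipolar markers. Of the measured genes, 97.8% had a smaller difference in size in Otx2 KI against WT, 98.9% between the mutants and 62.8% in Crx KO against WT. Between these leucine-rich repeat genes, the change of Lrit3 minus that of Nyx was -1.38 (error 0.31) in Otx2 KI against WT and -0.39 (error 0.29) in Crx KO against WT.

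The Lrit3 probe is dim, and its difference moved with the background correction. Its spot had a median pixel signal of 75 over a local background of 47 in Otx2 KI, 125 over 42 in Crx KO and 140 over 47 in WT. With normexp background correction the log2 differences were -0.72 in Otx2 KI against WT, -0.16 in Crx KO against WT and -0.57 between the mutants, all within 2-fold. Under the other processing settings tried, Otx2 KI against WT stayed between -1.34 and -1.16. Those settings all kept the same background-subtracted signal of this 1 probe. Averaging probes and dropping the filter on dim probes could not move it. They are therefore no check of the background. Of the 2671 genes with a mean scaled signal within 2-fold of that of Lrit3, 80 (3%) were also 2-fold or more lower in Otx2 KI against WT. That share is near the 2.53% of all genes. Between the mutants 45 of 2672 such genes were 2-fold or more lower, beside 102 of all 15805 measured genes. In Crx KO against WT 127 of 2674 were, beside 550 of 16048. In both of these comparisons such dim genes were called lower more often than all genes.

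**Figure D2:**
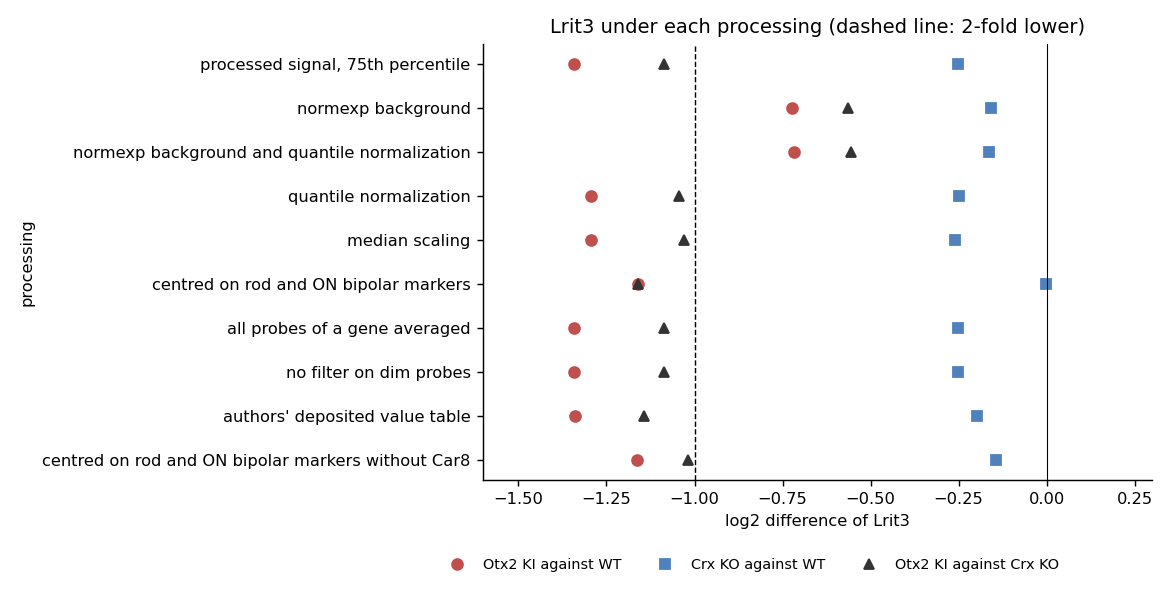
Log2 difference of Lrit3 (x axis) under each processing setting (rows) for Otx2 KI against WT (circles), Crx KO against WT (squares) and Otx2 KI against Crx KO (triangles). The dashed line marks 2-fold lower. The Otx2 KI against WT value is -1.34 with the processed signal and -0.72 with normexp, and every value is below 0.

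Pcp2 encodes a protein of rod and ON bipolar cells, and of cerebellar Purkinje cells, that binds the Go alpha subunit through a GoLoco motif. It read 34962 in Otx2 KI, 41998 in Crx KO and 39728 in WT (probe A_55_P2111399). The log2 differences were -0.18 and 0.08 against WT, within the error, and -0.26 between the mutants, slightly beyond it. Against WT the genotypes have no resolved order for Pcp2.

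Over the 10 genes the median log2 difference was -0.18 in Otx2 KI against WT, with 7 genes below 0 and 3 above, beside a median of 0.03 over all measured genes. Without Lrit3 the range was -0.26 to 0.26 with an SD of 0.16 among genes. In Crx KO against WT the median was 0.07, with 4 genes below 0 and 6 above and a range of -0.25 to 0.14, beside -0.01 over all genes. On their brightest probes all 10 cascade genes lay within 0.5 of WT in Crx KO, and 9 of 10 did in Otx2 KI. Of all measured genes, 83.1% and 86.9% did so. Further probes of Trpm1 and Gnao1, described below, were at -0.65 and 0.70 in Crx KO. Between the mutants the median was -0.16, with 8 genes below 0, beside 0.04 over all genes. Of all measured genes, 7062 of 15809 were below 0 in Otx2 KI against WT and 8267 of 16048 in Crx KO against WT. Between the mutants 6377 of 15805 were. In each comparison most of the cascade's differences on the brightest probes were smaller than the scanner error, so their signs are not resolved. Both comparisons with WT use the same WT array. The size of these medians depends on the scale, and only that for Otx2 KI against WT changed sign, to just above 0. When each array was centred on rod and ON bipolar markers, which moved the median of all genes up by 0.18 in Otx2 KI and 0.25 in Crx KO, the cascade's medians were 0.00 and 0.32. On that scale 1.94% of genes were lower and 1.98% higher in Otx2 KI against WT, and 2.15% were lower and 3.37% higher in Crx KO against WT. Without Car8, a marker described below, the cascade's medians were 0.00 and 0.18.

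**Figure D3:**
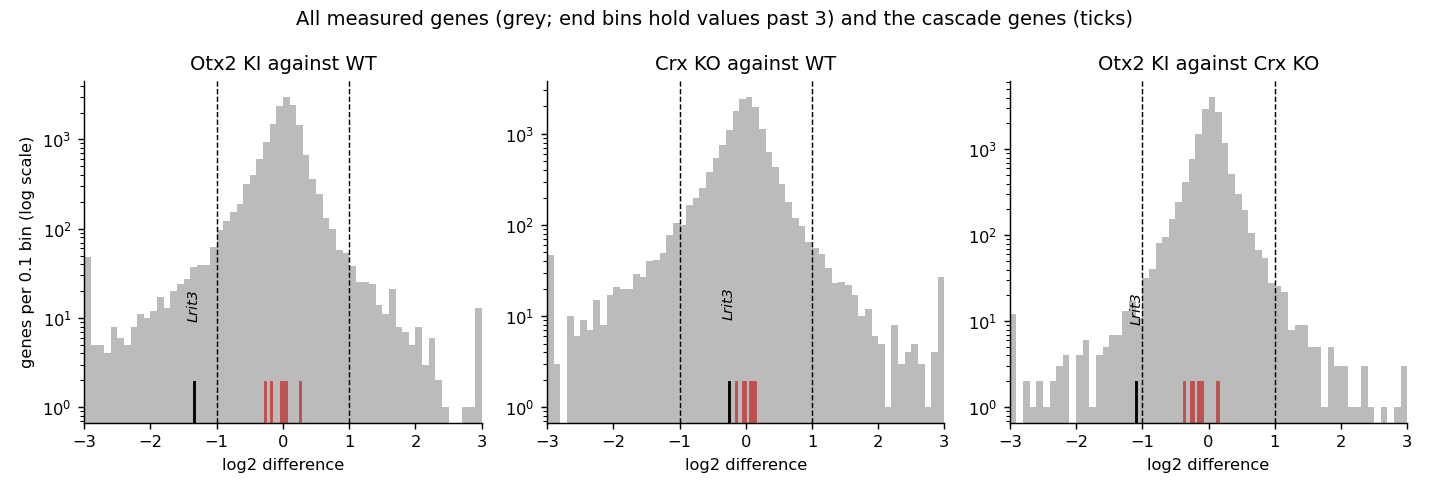
Number of measured genes (log axis, grey bars) by log2 difference in bins of 0.1, with the 10 cascade genes as ticks, red except Lrit3 in black. Dashed lines mark 2-fold, and the end bins hold all values past 3. All ticks except that of Lrit3 in both Otx2 KI comparisons lie between the dashed lines.

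Trpm1 and Gnao1 had more than 1 probe, and these probes did not give the same differences. For Trpm1, a further probe of the same RefSeq transcript (A_55_P2043782) read 2275 in Otx2 KI, 1926 in Crx KO and 2037 in WT, with log2 differences of 0.16 and -0.08 against WT. The probe of the other listed transcript (A_51_P338031) read 418 in Otx2 KI, 346 in Crx KO and 544 in WT. It was 1.30-fold lower in Otx2 KI (log2 -0.38) and 1.57-fold lower in Crx KO (-0.65) than in WT, both beyond the error of 0.20. TRPM1 was first described in melanocytes, as melastatin, and most markers of pigment cells were lower in both mutants than in WT. The summed scaled signal of 10 pigment cell markers, a list added after the values were seen, was 8495 in Otx2 KI, 5378 in Crx KO and 15418 in WT. In Otx2 KI 1 of 9 measured markers was 2-fold or more lower than in WT, and in Crx KO 5 of 8 were. Dct, a melanin synthesis enzyme that made up most of the summed signal, read 5706 in Otx2 KI, 3353 in Crx KO and 10662 in WT. Mitf, on the same list, was near WT, with log2 differences of -0.09 in Otx2 KI and 0.04 in Crx KO. Best1 was not well above background on any array and Slc45a2 was not in Crx KO. The part of pigment cells in the Trpm1 signals was not tested.

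A second Gnao1 probe, of another transcript (A_52_P205031), read 92.7 in Otx2 KI, 116 in Crx KO and 71.4 in WT. It was higher than WT in both mutants, by 0.38 (1.30-fold) in Otx2 KI and by 0.70 (1.62-fold) in Crx KO on the log2 scale. Both Gnao1 probes were thus above WT in both mutants, but by unequal amounts in Crx KO, 0.13 and 0.70. When the probes of a gene were averaged, Trpm1 was at 0.12 and Gnao1 at -0.09 between the mutants, opposite in sign to their brightest probes. No cascade probe other than that of Lrit3 passed 2-fold in any comparison.

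**Figure D4:**
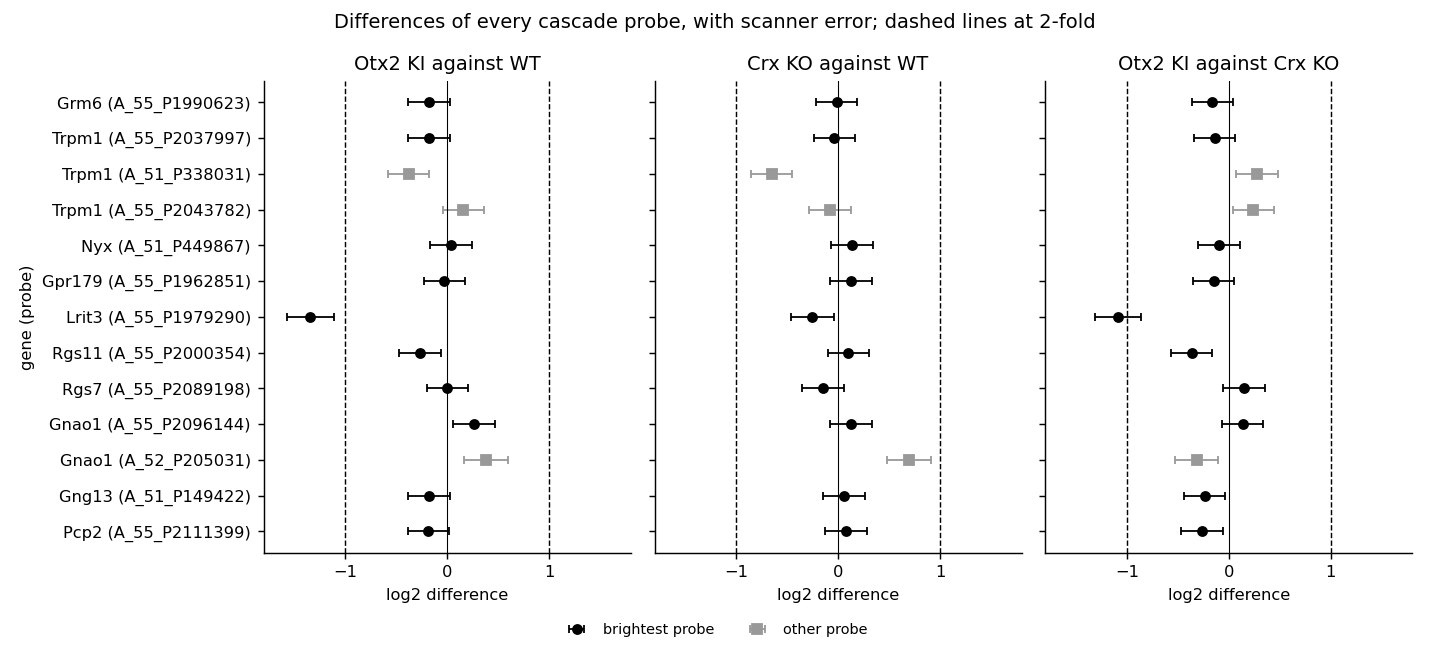
Log2 difference (x axis) of each of the 13 cascade probes for Otx2 KI against WT, Crx KO against WT and Otx2 KI against Crx KO, with the scanner software's error as bars. Black circles are the brightest probe of a gene and grey squares its other probes. Dashed lines mark 2-fold, passed by the Lrit3 probe in the first and last panel.

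The proteins that work with the cascade differed more among themselves. Of 8 partner genes, 2 were 2-fold or more lower in Otx2 KI than in WT and 1 in Crx KO, with 0 higher. Their medians were -0.29 and -0.14, the second above 0 when centred on rod and ON bipolar markers, though not without Car8. Gnb3, the beta subunit of ON bipolar cells and cones, read 27820 in Otx2 KI, 27814 in Crx KO and 18902 in WT. It was higher than WT by 0.56 on the log2 scale in both mutants. Gnb5 encodes the beta subunit that R7 RGS proteins need for their stability. Gnb5 read 7374 in Otx2 KI, 9609 in Crx KO and 18931 in WT, with log2 differences of -1.36 and -0.98 (-1.39 and -0.97 on its other probe). Rgs9bp, a membrane anchor of R7 RGS proteins, read 1338 in Otx2 KI, 1764 in Crx KO and 4311 in WT. Its log2 differences were -1.69 and -1.29, and -0.81 and -0.74 on a dim second probe. GNB5 and RGS9BP also serve RGS9 in photoreceptors, so their signal in whole retina belongs to more than ON bipolar cells. Rgs7bp, the related anchor, read 584 in Otx2 KI, 694 in Crx KO and 600.0 in WT, with log2 differences of -0.04 and 0.21. Lrit1, a relative of Lrit3 known from the photoreceptor synapse, had log2 differences of -0.87 and -0.74.

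Most cell type markers of bipolar cells were within 2-fold of WT. Of 12 rod and ON bipolar markers, 0 were past 2-fold in Otx2 KI against WT and 1 in Crx KO against WT, with medians of -0.14 and -0.09. Prkca, the protein kinase C of rod bipolar cells, read 20428 in Otx2 KI, 20401 in Crx KO and 23846 in WT, a log2 difference of -0.22 in Otx2 KI and -0.23 in Crx KO. Prkca and Cabp5 belong to both this list and the partners. Sebox, a homeodomain transcription factor, read 1727 in Otx2 KI, 2137 in Crx KO and 2929 in WT. Its log2 differences against WT were -0.76 in Otx2 KI and -0.46 in Crx KO, both beyond the error of 0.20. The marker past 2-fold was Car8, a carbonic anhydrase-related protein, with 789 in Otx2 KI, 256 in Crx KO and 912 in WT. It was lower in Crx KO by 1.83 on the log2 scale (1.92 on its other probe), against -0.21 in Otx2 KI. The summed signal of the 12 markers was 71370 in Otx2 KI, 73216 in Crx KO and 81909 in WT. Of 11 OFF bipolar markers 9 were measured, 0 were past 2-fold against WT in either mutant, and the medians were -0.04 and -0.08. The OFF bipolar markers ranged from -0.34 to 0.27 in Otx2 KI and from -0.47 to 0.10 in Crx KO. The OFF bipolar median was above 0 in both mutants on the scale centred on rod and ON bipolar markers. The rod and ON bipolar list itself averages 0 on that scale by construction. Erbb4 and Hcn4 were not well above background on any array.

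Genes of the photoreceptor side of the same synapse lay mostly below WT, 7 of 9 measured genes in Otx2 KI and 9 of 9 in Crx KO. Of all measured genes, 7062 of 15809 and 8267 of 16048 did. On the scale centred on rod and ON bipolar markers, Dag1 (-0.03) and Dmd (-0.22) move above 0 in Crx KO. Without Car8 only Dag1 does. Of 10 such genes Elfn1 was not measured, and the others had medians of -0.70 in Otx2 KI and -0.50 in Crx KO, and 2 and 1 of them were 2-fold or more lower. Cabp4, a calcium sensor of the photoreceptor terminal, read 377 in Otx2 KI, 477 in Crx KO and 4086 in WT (log2 -3.44 and -3.10). Slc17a7, the vesicular glutamate transporter that loads the transmitter, read 2028 in Otx2 KI, 2199 in Crx KO and 4312 in WT (-1.09 and -0.97). Slc17a7 was within 2-fold in Otx2 KI when centred on rod and ON bipolar markers or with normexp and quantile normalization. Cacna1f, the pore subunit of the terminal's calcium channel, read 2314 in Otx2 KI, 2867 in Crx KO and 4290 in WT (-0.89 and -0.58). Dag1, the dystroglycan of the synaptic cleft, was near WT at 0.17 and -0.03. Elfn1, which binds mGluR6 from the rod side, was not well above background on any array. The 8 rod markers were lower still, with medians of -1.81 and -1.30 and with 6 in Otx2 KI and 7 in Crx KO 2-fold or more lower. When centred on rod and ON bipolar markers, Nrl (-1.01) and Pde6b (-1.14) come within 2-fold in Crx KO. Without Car8, Nrl alone does. Of 8 cone markers, 4 of the 7 measured were 2-fold or more lower in each mutant, and Opn1sw was well above background in WT only. Among 8 Muller glia markers (medians 0.11 and 0.26) and 12 markers of amacrine, horizontal and ganglion cells (0.06 and 0.06), 0 were past 2-fold against WT in either mutant. The Muller glia potassium channel gene Kcnj10 came nearest, at 0.87 in Crx KO. The shift of 0.25 on the scale centred on rod and ON bipolar markers takes it past 2-fold, and the shift of 0.11 without Car8 does not.

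**Figure D5:**
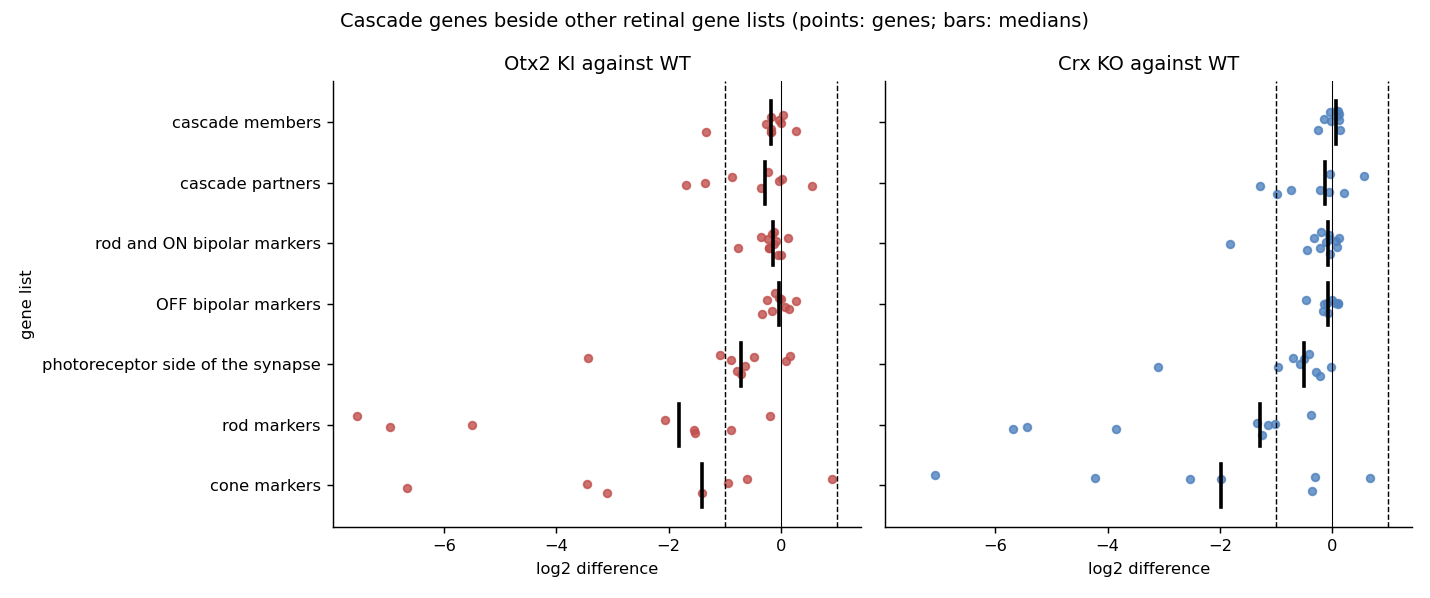
Log2 difference (x axis) of single measured genes (points) in 7 gene lists (rows), for Otx2 KI against WT and Crx KO against WT, with the median of the measured genes as a black bar and 2-fold as dashed lines. Points are spread vertically for display only. The cascade medians are -0.18 and 0.07, beside -1.81 and -1.30 for the rod markers.

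Relatives of the cascade genes were set beside them by family. The other group III glutamate receptors were near WT in both mutants, with log2 differences between -0.25 and 0.15 for Grm4, Grm7 and Grm8. Of 7 other TRPM channel genes 6 were measured, with medians of 0.01 and -0.04 and 0 past 2-fold. Among R7 RGS relatives, Rgs6 was at 0.16 and 0.19 and Rgs9, the photoreceptor member, at -0.20 and -0.13. The other Rgs9 probes were at 0.11 and -0.01, and at 0.00 and -0.02. The other Rgs6 probes were at 0.15 and 0.40, and at -0.00 and 0.23. The other Gi/o alpha subunits had medians of -0.03 and -0.04 over 4 genes, with Gnaz lowest at -0.86 and -0.61. Of 9 other gamma subunit genes, Gng8 alone passed 2-fold, with 266 in Otx2 KI, 70.2 in Crx KO and 249 in WT (log2 0.10 and -1.83). Gng10 was at 0.81 and 0.84, the second past 2-fold on the scale centred on rod and ON bipolar markers, though not without Car8. Of 7 relatives of Lrit3, Gpr179 and Pcp2, 1 was 2-fold or more lower in each mutant, with medians of -0.87 and -0.74. Lrit2 read 1135 in Otx2 KI, 1211 in Crx KO and 2201 in WT (-0.95 and -0.86). Gpsm2, which carries GoLoco motifs like Pcp2, read 535 in Otx2 KI, 586 in Crx KO and 3048 in WT (-2.51 and -2.38). Gpr158, the closest relative of Gpr179, was at 0.09 and 0.25.

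The genes whose pattern was most like that of Lrit3 were sought among 10683 genes brighter than the median gene, by straight-line distance between the 2 log2 differences against WT. The nearest was Adcy6, an adenylyl cyclase, at a distance of 0.32, with -1.17 in Otx2 KI and -0.52 in Crx KO. Adcy1, another adenylyl cyclase, followed at 0.37 with -1.05 and -0.47. Gnat2, the cone transducin alpha subunit, stood at 0.39 with -0.95 and -0.31. Ccdc65 (-0.94 and -0.08) and Vps37a (-0.89 and -0.16) came next, at 0.44 and 0.47. These distances rest on 3 arrays that all the genes share and on the processed signal of the dim Lrit3 probe, whose differences were -0.72 and -0.16 with normexp. The search was not repeated with those values.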

How the data were processed

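RNA from 3 retina samples was measured on 1-colour arrays, 1 each for Otx2 KI, Crx KO and WT, grouped by the labels. Per the labels' protocols, total RNA was purified with QIAzol, amplified and labelled with Cy3. The deposited scanner files hold intensity values from Agilent Feature Extraction 12.0.3.1, per the file headers, for an array design that refers to mm9. The arrays share 1 slide and 1 scan, and slide position and genotype cannot be told apart. The authors' deposited value table held the processed intensity times 1 constant per array (2.54 for Otx2 KI, 2.61 for Crx KO and 2.49 for WT, with column medians of 125.7, 135.8 and 129.8). These values are thus linear and not centred, and the sources used here do not give the choice of constants.

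Control spots and outlier spots (132 in Otx2 KI, 126 in Crx KO and 136 in WT) were left out and no spot was saturated. The log2 processed signal was reduced by each array's 75th percentile (563.5, 569.8 and 574.0 units in the same order), and spots of a probe were averaged. Probes were named by unversioned accession through the RefSeq genes of GRCm38.p6, which named 28331 of 55681 probes (50.9%). Only names were taken from that assembly, apart from the promoter windows. Each gene is represented by the probe of highest mean log2 signal. Named are all 10 cascade genes, Crx, Otx2, list members past 2-fold (at most 4) or with the highest signals (up to 3), and the 5 genes nearest to Lrit3. Other list members are named as examples chosen after their values were seen. The genes and lists were chosen with earlier results of these data known.

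The number of arrays limits the precision. Probes with 10 spots per array had a median SD of 0.06 on the log2 scale between spots. The steps were tested on simulated data with Python 3.11.15, numpy 2.4.6 and pandas 2.3.3. Alternatives changed the background correction (limma 3.58.1 in R 4.3.3, normexp with offset 50), the normalization, the probe summary, the filter on dim probes, the source of values and the threshold (1.5-fold). The files used here hold no mean spot signal, so normexp took the median spot signal in its place.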

Additional observations from a re-analysis of the deposited data

How the results depend on the processing

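No paired analysis was possible because each genotype has 1 array, and for the same reason no array could be left out. With normexp background correction, and with normexp and quantile normalization, 0 cascade genes were 2-fold or more lower in Otx2 KI against WT and 0 in Otx2 KI against Crx KO, in place of 1 each. Of all measured genes, 1.78% and 1.72% were lower in Otx2 KI against WT under these settings in turn. Lrit3 was then at -0.72 and -0.72 against WT, and at -0.57 and -0.55 against Crx KO. Normexp with an offset shrinks the differences of dim probes by construction. The median of the cascade in Crx KO against WT was 0.32 when centred on rod and ON bipolar markers, against 0.07, and 0.18 without Car8, a setting added after seeing the data. The other medians and counts of the cascade stayed within the scanner error or 1.5 times. Of 240 values of single cascade genes under the other settings, 222 moved by less than the scanner error, 221 had the same sign, and 12 were at or past 1, all of them for Lrit3. Some of these values could not move. The filter on dim probes removed no cascade gene, and averaging probes left the 8 genes with 1 probe unchanged. Shares of all genes moved by over 1.5 times. With normexp the lower and higher shares were 2.05% and 1.14% in Crx KO against WT and 0.316% and 0.222% between the mutants, and the higher share in Otx2 KI against WT was 0.823%. With normexp and quantile normalization these were 1.94%, 1.20%, 0.335%, 0.215% and 0.816%. Without a filter on dim probes, 4.24% were lower and 2.33% higher in Otx2 KI against WT, 3.69% were higher in Crx KO against WT, and 2.72% were lower and 1.84% higher between the mutants. At 1.5-fold, 6.35% were lower and 3.66% higher in Otx2 KI against WT, 8.24% and 5.02% in Crx KO against WT, and 2.31% and 2.44% between the mutants.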
